A study of Drosophila melanogaster with 4 samples.

Results

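Broad H3K23ac domains are the widest stretches of a combined list of enriched regions from fly head chromatin. They were taken as all regions of that list at least 10 kb wide on the 5 large chromosome arms (2L, 2R, 3L, 3R, X) or on chromosome 4. This gave 723 domains among 16231 combined regions, 4.45% of the regions and 23.4% of the combined length. Together they spanned 12.2 Mb. The data came from chromatin immunoprecipitation and sequencing (ChIP-seq) of nuclei from the heads of adult wild-type flies of strain Oregon-R (Oregon-R-modENCODE), labelled mixed adult, in 2 ChIP samples and 2 input samples of unenriched chromatin. No treatment is labelled, and no group carries an added allele. The flies were raised in population cages and heads were separated from bodies with sieves, so nuclei of all head cell types were pooled, and a domain marked in every cell cannot be told apart from one made of shorter stretches in different cells. Whether the 2 ChIP samples were separate fly collections is not labelled, and their spread may be technical.

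Acetylation of lysine 23 in the tail of histone H3 removes a positive charge from the tail. It is added by histone acetyltransferases, removed by deacetylases, and found in open, transcribed chromatin. Acetylation often peaks near gene starts, and in places neighbouring peaks join into long stretches. The fly head holds brain and eye neurons, glia, muscle and fat body, each with its own active genes.

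The domains were chosen by their width in the combined list, so their number and width are a description. The combined list belongs to the same ChIP samples as the replicate lists and took in nearly all their regions, so coverage of a domain by a replicate is not independent of the choice either, and no test was made on it. With 2 replicates, an exact two-sided sign test cannot give a p below 0.5. Values over the replicates are therefore given side by side or as mean ± SD. Replicate 1 held 9466 regions on the arms and chromosome 4 and replicate 2 held 9141, covering 20.4% and 19.9% of the sequence. No read numbers were at hand, so the depth behind each region is unknown.

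The domains were mostly between 10 and 20 kb wide. Their median width was 14223 bp, with quartiles of 11705 bp and 18942 bp, against a median of 1905 bp over the 15508 combined regions under 10 kb. Of the 723, 153 were at least 20 kb wide and 7 at least 50 kb. The number depends on how the list was cut: with combined regions less than 500 bp apart joined first, 1130 stretches reached 10 kb and held 40.4% of the combined length. The limit of 10 kb falls within a continuous range of widths. The 3 narrowest domains were 10013 bp on 3R (10255482 to 10265494; all positions are 1-based on FlyBase release 5), 10025 bp on X (7558734 to 7568758) and 10033 bp on 3R (26319978 to 26330010). The widest regions left out were 9997 bp on 3R (23447082 to 23457078), 9987 bp on 3L (12231746 to 12241732) and 9983 bp on 3R (6558978 to 6568960). Scores overlapped on the 2 sides of the limit, from 0.44 to 0.59 inside and from 0.40 to 0.56 outside.

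Arm 2R held the most domains for its length and chromosome 4 held none. It had 187 domains, 8.84 per Mb, over 15.2% of its sequence. Arm 3R had 205, 7.35 per Mb, over 12.1%. Arm 2L had 146, 6.34 per Mb, over 9.98%, and 3L had 131, 5.34 per Mb, over 10.2%. The X chromosome had 54, 2.41 per Mb, over 3.71%. Of the combined regions of X, 1.78% were broad, against 5.08% over the 4 autosomal arms together, and on each autosomal arm the share lay between 3.99% and 6.86%. Chromosome 4, a small and largely heterochromatic chromosome, had 47 combined regions, the widest 5771 bp.

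Median widths were close between the arms, from 12939 bp on X to 14853 bp on 3L, and the widest domains differed more. The widest of each arm were 105589 bp on 3L (22295546 to 22401134), 72861 bp on 2R (2389474 to 2462334), 53457 bp on 3R (5700666 to 5754122), 39803 bp on 2L (20980986 to 21020788) and 37319 bp on X (1463264 to 1500582). Coverage of the X domain was 77.5% in replicate 1 and 80.0% in replicate 2. The 2L domain was covered over 85.1% and 75.1%, and the 3R domain over 87.3% and 91.1%. On 2R and 3L the widest domain was covered over at least 93.5% in each replicate.

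Each replicate list marked about 3 in 4 bases of the broad domains. Replicate 1 covered 74.0% of their length and replicate 2 covered 74.8%, a mean of 74.4% ± 0.569 (SD, n = 2). In combined regions under 10 kb the values were 38.2% and 36.6%, a mean of 37.4% ± 1.09. Both replicates marked 60.2% of the domain length, replicate 1 alone 13.8%, replicate 2 alone 14.6% and neither 11.5%. In the regions under 10 kb, 19.6% was marked by both and 44.8% by neither. The Jaccard index of the replicates, the length marked by both over the length marked by either, was 0.680 inside the domains and 0.355 inside the regions under 10 kb.

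Coverage changed gradually with width and showed no step at 10 kb. In regions of 7.5 to 10 kb, replicate 1 covered 60.8% and replicate 2 covered 61.8%. From 10 to 12.5 kb the shares were 66.5% and 66.7%, and from 15 to 20 kb they were 75.5% and 75.8%. In the 40 domains of 30 to 50 kb they reached 84.6% and 84.5%, and in the 7 domains of at least 50 kb they were 88.5% and 91.9%. The Jaccard index went from 0.527 at 7.5 to 10 kb through 0.605 at 10 to 12.5 kb to 0.860 in the 7 widest domains.

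**Figure D1:**
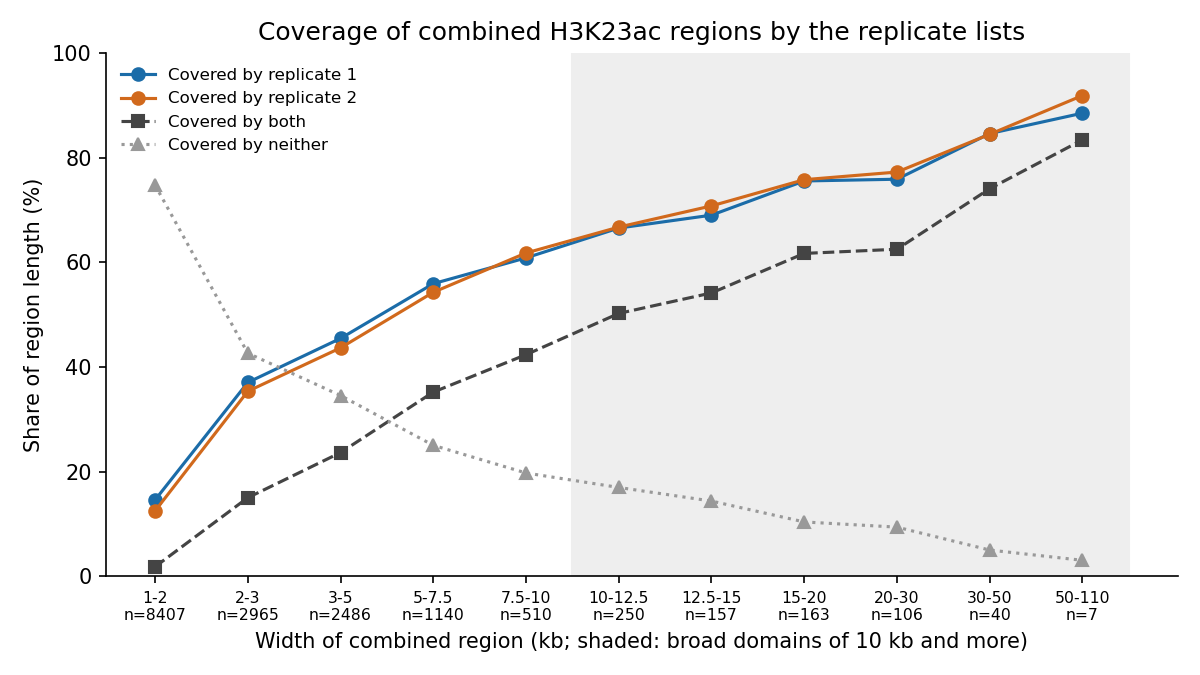
The share of the length of combined regions (vertical axis, %) covered by replicate 1, replicate 2, both and neither is plotted for 11 width classes (horizontal axis, kb, with the number of regions), each point being the total over a class. Coverage by each replicate goes from under 15% at 1 to 2 kb to 88.5% and 91.9% at 50 kb and more, and the share covered by neither falls from 74.8% to 3.03%.

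Among single domains, 635 were covered over at least 50% in replicate 1 and 641 in replicate 2. Both replicates reached 50% in 585 domains, 80.9%. Over all combined regions the same was true of 16.8%, and this background is made mostly of short regions: 51.8% of all combined regions were under 2 kb. Of the remaining domains, 50 reached 50% in replicate 1 only, 56 in replicate 2 only and 32 in neither. Both lists had at least 1 region in 721 of the 723 domains, against 27.9% of all combined regions. The other 2 domains met 1 list only, as 27.7% of all combined regions did, and 0 domains met neither, against 44.4%. Wide regions meet other lists more often by chance as well. At the upper end, 264 domains, 36.5%, were covered over at least 75% in both replicates and 44, 6.09%, over at least 90%. For these 2 limits the share over all combined regions was not computed.

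The shares of the 2 replicates differed by under 10 percentage points in 388 domains, 53.7%. The difference was over 30 points in 54, of which 45 were narrower than 15 kb. Of all domains, 250 were 10 to 12.5 kb wide and 157 were 12.5 to 15 kb. The median difference was 9.10 points in the domains. In regions under 10 kb it was 3.08 points, with a median covered share of 0 in each replicate. Neither replicate was the higher throughout: replicate 1 covered more in 351 domains and replicate 2 in 371. Across the 723 domains, which come from the same 2 libraries, the covered shares were related with a Spearman rho of 0.59 and Pearson's r at 0.57.

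**Figure D2:**
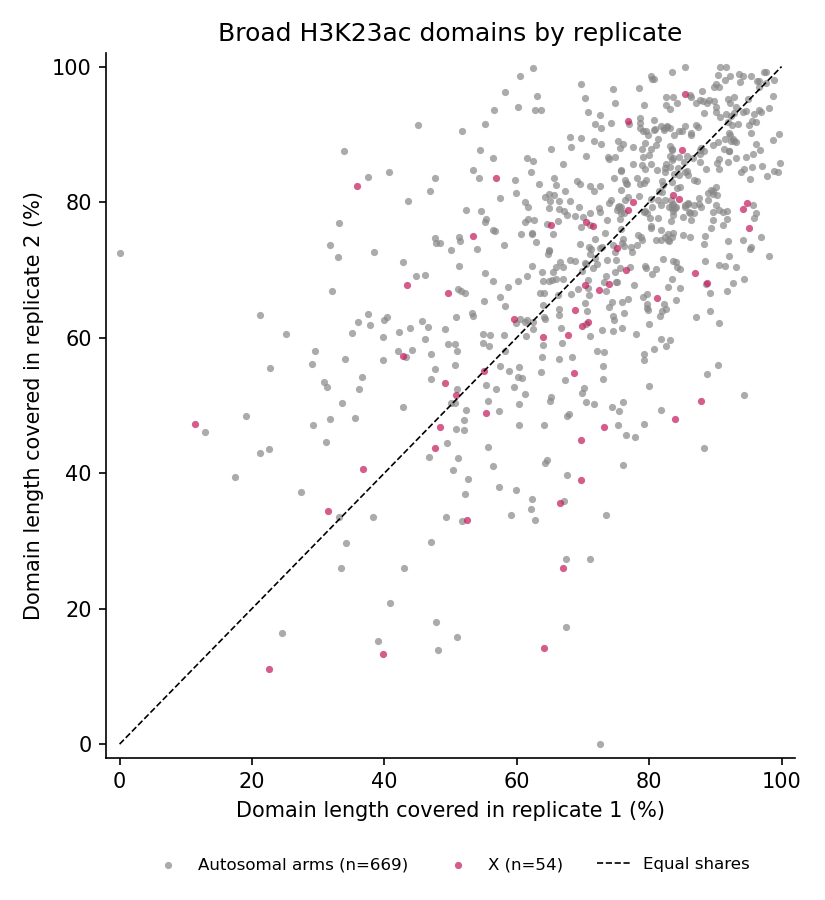
Each point is 1 of the 723 broad domains, with the share of its length covered in replicate 1 on the horizontal axis and in replicate 2 on the vertical axis (both %), and the dashed line marks equal shares. Most points lie in the upper right, where 585 domains are above 50% on both axes, and 1 domain lies on each axis at 0.

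The 5 domains that differed most were each marked mainly in 1 replicate. On 2R (17123446 to 17134012), 4 regions of replicate 1 covered 72.6% of the domain and replicate 2 had no region. The reverse held on 3R (1756370 to 1769406), where 2 regions of replicate 2 covered 72.4% and replicate 1 had none. Their combined scores, 0.44 and 0.45, were below the 10th percentile of the domains, 0.46. The next were 3R 19027414 to 19040034, covered over 34.0% and 87.6% in replicates 1 and 2, 2R 19360502 to 19372802, over 67.4% and 17.2%, and X 9540310 to 9550746, over 64.1% and 14.2%.

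The least covered domains showed what else a broad combined region could hold. On X (2394600 to 2406462), 1 region of each replicate covered 22.6% and 11.0% of the domain, with no base in common. A second domain 30349 bp away on X (2350822 to 2364250) was covered over 39.8% and 13.2%, again with no base in common. On 3R (26523640 to 26541700), 18061 bp wide, the shares were 24.6% and 16.4%. The others were 3R 6362710 to 6374358, at 39.1% and 15.2%, and 3L 11381076 to 11391900, at 17.4% and 39.4%. In all, 10 domains had no base marked by both replicates.

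In the replicate lists a broad domain was usually several regions. The mean number of regions per domain was 3.12 in replicate 1 and 3.09 in replicate 2, 3.11 ± 0.0274 (SD, n = 2), with a median of 3 in each. A single region was found in 65 domains in replicate 1 and in 81 in replicate 2, and only 18 domains were a single region in both. At least 5 regions were found in 104 and 108 domains. The number was the same in both replicates in 234 domains, differed by 1 in 323 and by 2 or more in 166. Per 10 kb of domain there were 1.85 and 1.83 regions. The number rests on how replicate regions were separated: it was 1.80 per domain with regions less than 1000 bp apart merged, and 1.95 when replicate regions at or below the median score were left out.

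Replicate regions inside domains were longer than those elsewhere. Combined regions under 10 kb held 1.82 and 1.75 replicate regions per 10 kb, but this pools 1.04 and 0.905 at 1 to 2 kb with 2.05 to 2.19 in each class from 2 to 10 kb, which is above the 1.85 and 1.83 of the domains. The median width of replicate regions was 2895 bp inside domains and 1793 bp in combined regions under 10 kb in replicate 1, and 2946 bp and 1794 bp in replicate 2, a difference that the choice of wide combined regions favours. Regions per 10 kb were fewer in the widest domains, from 2.07 and 1.98 at 10 to 12.5 kb to 1.21 and 1.29 at 50 kb and more. The largest replicate region in a domain took up a median of 35.6% of the domain in replicate 1 and 36.7% in replicate 2. It took up at least 90% in 21 and 29 domains, and in 4 of these in both.

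The most divided domains were long. Replicate 1 broke 2R 17308952 to 17363648, 54697 bp wide, into 12 regions, and replicate 2 into 11. The domain 2L 14559610 to 14588662, 29053 bp wide, was 11 regions in replicate 1 and 5 in replicate 2, and 2R 11666638 to 11703456 was 10 and 7. In replicate 2 the widest domain, on 3L, had the most regions, 13, against 9 in replicate 1. The domain 3L 5188250 to 5240966 had 9 and 11.

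The broad domains held nearly 2 in 5 of the bases marked in each replicate. They contained 9.03 Mb of replicate 1, 36.8% of its covered length, and 9.13 Mb of replicate 2, 38.0%. By number they met 2257 regions of replicate 1, 23.8%, and 2230 of replicate 2, 24.4%. Most of these regions, 95.1% and 95.4%, lay wholly inside a domain. All 122 regions of at least 10 kb in replicate 1 and all 146 in replicate 2 met a broad domain, which follows for a region taken whole into the combined list. Yet only 110 and 133 of the 723 domains met such a region, so that most domains reached 10 kb only in the combined list.

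Gaps between regions inside a domain were short. Replicate 1 had 1532 such gaps in 657 domains, with a median of 682.5 bp and quartiles of 256.5 bp and 1461.5 bp. Replicate 2 had 1505 in 641 domains, with a median of 702 bp and quartiles of 265 bp and 1452 bp. Between all neighbours of a list the median gap was 3396 bp and 3343 bp, and gaps inside domains are bound to be short because a domain ends where the combined list has a break. With replicate regions less than 1000 bp apart merged, the mean of the 2 median gaps, 692.25 bp, became 1765.75 bp. Gaps of more than 3 kb numbered 107 and 98. Interior gaps made up 52.1% of the unmarked length of the domains in replicate 1 and 51.2% in replicate 2, and unmarked edges 47.5% and 48.4%.

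Many gaps of 1 replicate were filled by the other. Of the interior gaps of replicate 1, 45.1% were wholly covered by replicate 2 and 15.5% were not covered at all. Replicate 1 wholly covered 43.5% of the interior gaps of replicate 2 and left 17.3% open. By length, 63.8% of the gaps of replicate 1 and 62.7% of those of replicate 2 was filled. This is less than the filling replicate covered over the whole domain length, 74.8% for replicate 2 and 74.0% for replicate 1. What neither replicate marked came to 1030 interior stretches with a median of 418.5 bp, in 551 domains. The other 172 domains ran unbroken from the first to the last marked base once both lists were laid over each other.

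**Figure D3:**
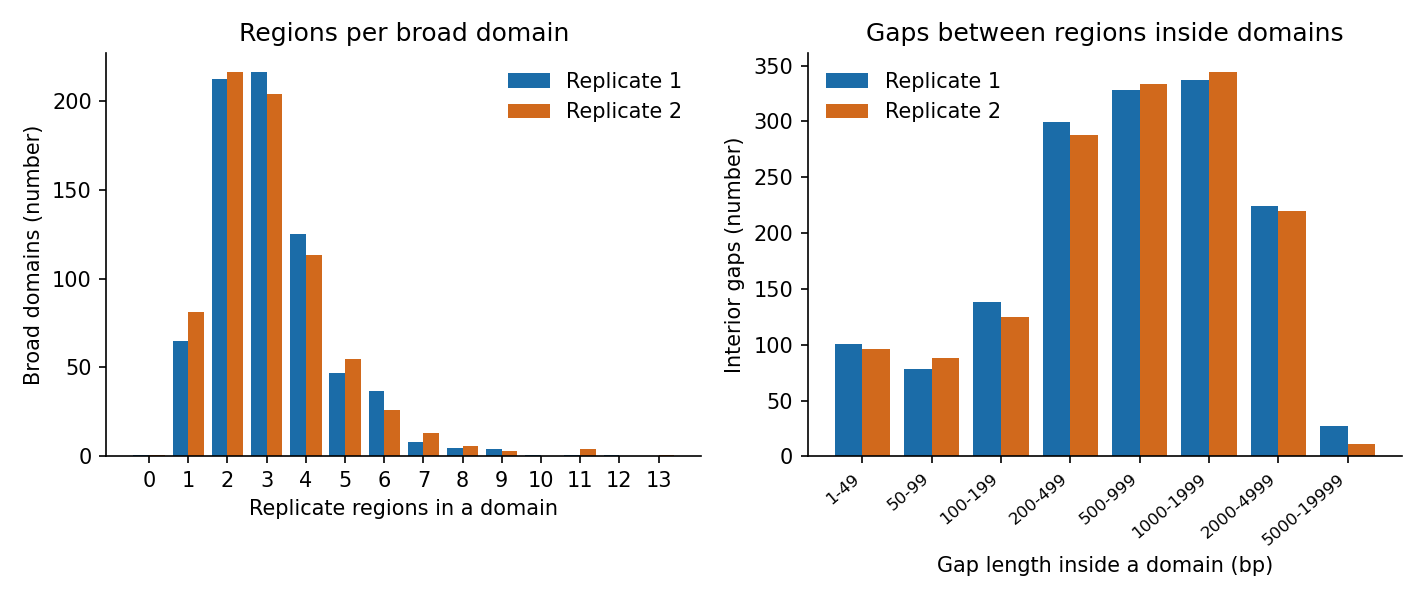
The left panel counts broad domains (vertical axis) by the number of replicate regions they meet (horizontal axis), and the right panel counts the interior gaps (vertical axis) by length class in bp, with 1 bar for each replicate. Domains with 2 or 3 regions are the most frequent in both replicates, and 61.6% and 61.8% of the gaps are shorter than 1 kb.

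The longest gaps were taken from each replicate. In replicate 1 the longest was 11772 bp, inside the weakly covered domain on 3R at 26523640, of which replicate 2 filled 12.3%. It was followed by 9675 bp on X (10393666 to 10403340), filled over 60.5%, and 8579 bp on 3L (11400072 to 11408650), filled over 36.7%. The longest of replicate 2 were filled to a greater extent by replicate 1. They were 10946 bp on X (597386 to 608331), filled over 94.8%, 10850 bp on 3R (17881577 to 17892426), over 83.1%, and 7305 bp on 3L (22224017 to 22231321), over 80.0%.

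Coverage was lower at the edges of a domain and level inside. In the first 500 bp inside an edge, replicate 1 covered 32.4% and replicate 2 covered 32.5%. From 500 to 1000 bp they covered 56.7% and 58.1%, and from 1500 to 2000 bp 73.3% and 75.8%. Between 2 and 5 kb inside, each step of 500 bp was covered over 74.3% to 77.6% in replicate 1 and 75.05% to 78.0% in replicate 2. Just outside, coverage dropped to 7.00% and 6.49% in the first 500 bp, where by construction the combined list has a break. From 2 to 5 kb outside, replicate 1 covered 36.2% to 38.3% of each step and replicate 2 covered 35.2% to 38.0%. These shares were above those of the whole sequence, 20.4% and 19.9%. However, 31.7% of the domains had another broad domain within 5 kb, and coverage outside without such neighbours was not computed.

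**Figure D4:**
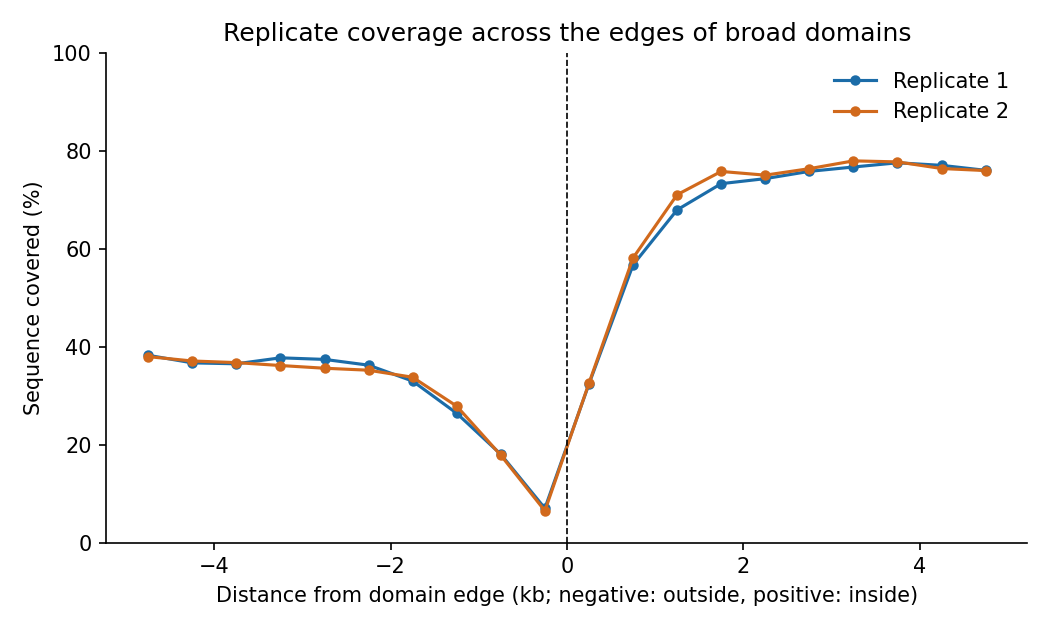
The share of sequence covered by each replicate (vertical axis, %) is plotted in steps of 500 bp by distance from the edge of a broad domain (horizontal axis, kb, negative outside and positive inside), averaged over both edges of all domains. Both replicates fall to about 7% just outside the edge, pass 56% within the first 1 kb inside and stay between 74.3% and 78.0% from 2 kb inwards.

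The domains had a higher median score than shorter regions. The score is the authors' own value for each region and behaves as a log2 ratio with an unknown zero point, so only differences within a list are read. In the combined list the median was 0.56 over the domains and 0.40 over regions under 10 kb, a difference of 0.16 on the log2 scale, or 1.11-fold. It was found within each of the 5 arms, the smallest being 0.14 for 2L and for X and the largest 0.18 for 2R. Scores ran from 0.37 to 1.00 among the domains and from 0.09 to 3.30 among regions under 10 kb, so the highest scores of the list belonged to short regions. The median changed gradually with width, from 0.51 at 7.5 to 10 kb to 0.53 at 10 to 12.5 kb and 0.66 at 50 kb and more. In the replicate lists, regions inside domains had medians of 0.62 in replicate 1 and 0.61 in replicate 2. Those in combined regions under 10 kb had a median of 0.57 in each.

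Score and coverage went together over the domains. In the 181 domains with the lowest scores, 0.37 to 0.50, replicate 1 covered 55.5% and replicate 2 covered 56.3%. In the 181 with the highest, 0.62 to 1.00, the shares were 86.3% and 87.2%, and the Jaccard index was 0.818 against 0.460 in the lowest. The Spearman rho between score and covered share over 723 domains was 0.69 for replicate 1 and 0.68 for replicate 2, and the lists share their libraries. Over the 669 domains of the autosomal arms rho was 0.75 and 0.76, and over the 54 of X it was 0.69 and 0.80. Width and score were less closely related, with a rho of 0.30.

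The 5 highest-scoring domains were 1 or 2 regions in each replicate and were covered over at least 80.4%. The highest was 2R 8843756 to 8868336, with a score of 1.00, covered over 97.3% in replicate 1 and 99.2% in replicate 2, where it was 1 region. The second, 3L 770068 to 826634, scored 0.93 and was 2 regions in replicate 1 and 1 in replicate 2. The third was X 1417662 to 1429088 at 0.88, covered over 84.5% and 80.4%. The fourth and the fifth, 2R 20230982 to 20241508 at 0.87 and 2R 8885006 to 8898114 at 0.86, were 1 region in each replicate. The first and the fifth lay in the same 1-Mb window of 2R, from 8 to 9 Mb.

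The lowest-scoring domains were covered in part. They were 3L 18081944 to 18092342, 2L 5146354 to 5157160, 3R 6362710 to 6374358, 3R 3891924 to 3903276 and 3L 11345134 to 11358522, with scores from 0.37 to 0.39 and widths from 10399 bp to 13389 bp. Replicate 1 covered 21.3% to 42.8% of them and replicate 2 covered 15.2% to 71.2%. On 3R at 3891924 the replicates had no base in common, with 31.1% and 44.6% covered.

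Domains on X were covered less completely than those of the autosomal arms. On X the shares were 66.7% in replicate 1 and 62.9% in replicate 2, a mean of 64.8% ± 2.70 (SD, n = 2). On the autosomal arms they were 74.5% and 75.6%, a mean of 75.05% ± 0.808. The difference was larger than the spread between replicates, but 2 replicates cannot give an exact p below 0.5. The replicates had a Jaccard index of 0.563 in X domains and 0.688 in autosomal ones, and 2R had the highest of any arm, 0.723. X domains were also narrower, so the shares were set side by side in 5 width classes. Coverage on X was the lower in 4 of 5 classes in replicate 1 and in 5 of 5 in replicate 2. The exception, 15 to 20 kb, held 6 X domains. The classes of 20 to 30 kb and of 30 kb and more held only 9 and 2. The median score of X domains was the higher in 5 of 5 classes, with 0.63 on X and 0.55 on the autosomal arms in all. Neither was particular to the domains. Regions of X under 10 kb were also covered less, at 33.1% and 28.6% against 39.3% and 38.3%, and also had a higher median score, 0.49 against 0.39.

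Broad domains were frequent at the telomere side of each arm. In the outer 2 Mb there, their number per Mb was 15 for 3R, 13.5 for 2L, 13 for 2R, 12 for 3L and 10.0 for X. In the middle of the arms the numbers were 6.44, 6.21, 9.10, 4.97 and 1.79 per Mb in the same order. On the centromere side 3R had 10.5 per Mb, 2R and 3L 2.50 each and 2L and X 0.500 each. The combined list itself had more regions there on 3R, 278 against 56 on 2R and 76 on 3L. The broad share of these regions was 7.55% on 3R, 8.93% on 2R and 6.58% on 3L. It was lower on 2L and X, at 1.11% of 90 regions and 0.549% of 182. Of all combined regions, 10.3% were broad on the telomere side, 4.84% on the centromere side and 3.95% in the middle. Of the 54 domains of X, 20 lay in its first 2 Mb, where their median width was 18769 bp, against 11655 bp over the 33 domains of the middle. Coverage of the X domains was 75.9% and 70.0% at the telomere side and 58.9% and 57.0% in the middle. Telomere-side domains of the autosomal arms were covered over 71.3% to 79.2% in replicate 1 and 76.8% to 82.6% in replicate 2. In the middle the autosomal ranges were 69.1% to 77.9% and 70.4% to 78.1%. At the telomere side, coverage on X thus lay within the autosomal range in replicate 1 and below it in replicate 2.

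The domains lay close to each other. The median gap from a domain to the nearest other domain was 14.6 kb, against 76.0 kb from a combined region under 10 kb to the nearest domain. Another domain lay within 50 kb for 74.1% of domains, and a domain lay within 50 kb of 39.6% of the regions under 10 kb. Within 10 kb the shares were 42.3% and 12.9%. With only the 153 domains of at least 20 kb, fewer and so farther apart, 44.4% had another such domain within 50 kb. The order of domains above shorter regions held within each of the 5 arms: 2R had 80.2% of domains and 56.9% of shorter regions with a domain within 50 kb, 2L had 74.7% and 43.8%, 3R had 74.6% and 42.7%, 3L had 70.2% and 36.4%, and X had 59.3% and 20.5%. The next region of the combined list was itself broad for 16.3% of domains and for 3.90% of regions under 10 kb. On X these shares were 9.26% and 1.65%. The farthest domain from any other lay 1057.861 kb away.

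**Figure D5:**
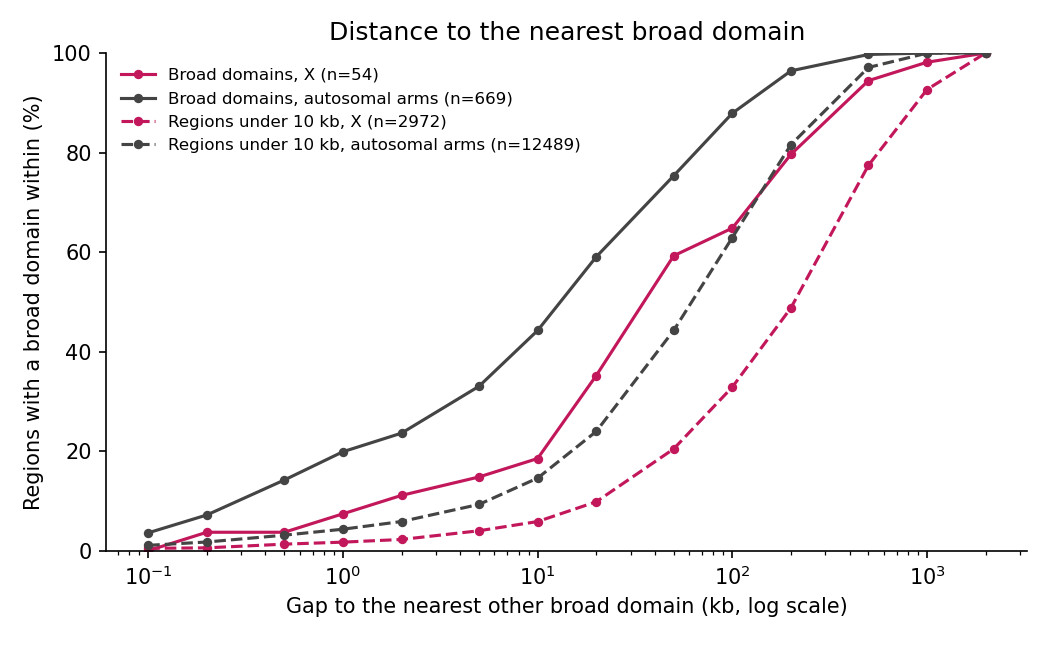
The cumulative share of regions (vertical axis, %) with a broad domain within a given gap (horizontal axis, kb, log scale) is plotted for broad domains and for combined regions under 10 kb, on the autosomal arms and on X. At 50 kb the curves stand at 75.3% and 44.3% on the autosomal arms and at 59.3% and 20.5% on X, for domains and for shorter regions.

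Runs of neighbouring domains, with no shorter combined region between them, held 205 of the 723. There were 65 runs of 2, 16 of 3, 4 of 4, 1 of 5 and 1 of 6. The longest in number was on 3R (798500 to 933344), where 6 domains filled 87.3% of 134.845 kb and replicates 1 and 2 marked 78.8% and 79.1% of the span inside them. Their scores lay between 0.60 and 0.71. The run of 5 was on 2R (8931340 to 9013000), with 64.5% and 69.3% marked. The runs of 4 were on 3L (19136118 to 19226960), X (1417662 to 1500582), 3R (24679646 to 24744162) and 2R (10414086 to 10460986). The X run held both the widest and the highest-scoring domain of X.

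By full windows of 1 Mb, the density ranged from 0 to 19 domains with a median of 5. The most were in 2R from 20 to 21 Mb, with 19 domains over 33.7% of the window, 2R from 8 to 9 Mb, with 16 over 23.8%, and 3L from 22 to 23 Mb, with 15 over 35.9%. Windows 2L from 1 to 2 Mb and 3R from 26 to 27 Mb also held 15. The 12 fullest of 117 windows held 24.5% of the 710 domains in full windows and 10.2% of the combined regions in them. These windows were ranked by their number of domains, so the ranking itself favours a higher share of domains than of regions. No domain was centred in 11 windows, 4 of the 22 on X and 7 of the 95 on the autosomal arms. Of the 7, the first window of 2R and the last full window of 3L held 0 combined regions and the last full window of 2L held 8, while the other 8 of the 11 windows held 100 to 162.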

How the data were processed

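H3K23ac ChIP-seq regions of fly heads were analysed from 3 deposited lists, 1 for each of 2 ChIP replicates and 1 combined list; no input file was used here. Alignment used Bowtie 0.12.7, per the submitters' processing notes. Neither labels nor headers name the peak caller, its threshold or the way replicates were combined: these steps stay unknown. Coordinates are FlyBase release 5, per the file headers. The gene table at hand is of release 6, so no gene is named, and no genome sequence was used here.

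The deposited score is read as log2 from its values: differences to the most frequent score were log2 ratios of whole numbers (denominators to 20000, within 1e-12 of the ratio) for 100% of regions in each replicate and 99.6% in the combined list.

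Overlap needed at least 1 bp. Covered length, gaps, edges and distances were computed in Python 3.11.15 with numpy 2.4.6, pandas 2.3.3 and scipy 1.17.1, and the functions were tested on simulated data. Regions were placed in ends and windows by their centre. Means over 2 replicates carry an SD; no p-value was computed. The depth is unknown. Domains are named by rule: the widest per arm, the 5 highest and lowest in score, the 5 least covered and most different, the 3 most divided, longest gaps, closest pairs, those nearest the limit, and the longest runs. The members and lists were chosen with earlier results of these data known.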

Additional observations from a re-analysis of the deposited data

How the results depend on the processing

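Of 61 values under the alternatives, all planned, 46 moved. A move was a change beyond the spread between replicates, the binomial interval of a share, or a small tolerance where neither exists. The number of domains had a wider limit, a 1.5-fold change, so the 669 domains without X counted as the same. The binomial interval took the domains as independent, although they come from 1 list and lie close together, so its labels are only a rough guide. In sign 0 reversed, but only the score difference could, because counts, shares, indices and lengths cannot be negative. With a limit of 20 kb there were 153 domains with 8.54% of the combined length and 14.8% of the replicate length. Their covered share was 80.5%, their Jaccard index 0.737 and their score difference 0.19, with 4.74 regions per domain and a median gap of 678 bp. Another domain lay within 50 kb for 44.4% and came next in the list for 7.84%. With 5 kb there were 2373 domains with 45.0% of the combined and 64.2% of the replicate length. Coverage was 66.3%, the index 0.596, the score difference 0.11, the number of regions 1.97, the gap 673 bp, and the shares with a near or next domain 94.1% and 27.7%. Joining combined regions less than 500 bp apart gave 1130 domains, 40.4% and 55.9% of the lengths, 63.1% coverage, an index of 0.591 and a score difference of 0.10. It gave 3.60 regions per domain, a gap of 942.25 bp, and 83.8% and 22.6% with a near or next domain. Without X, 25.6% and 39.6% of the lengths lay in domains, coverage was 75.05%, the index 0.688 and the score difference 0.16 (0.164 against 0.156).

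With replicate regions above the median score alone, coverage was 58.6%, the index 0.566, the regions per domain 1.95, the gap 898.5 bp and the share of replicate length 46.5%. Merging replicate regions less than 1000 bp apart gave 77.6%, 0.715, 1.80 and 1765.75 bp. Another domain lay within 20 kb for 57.3% and within 100 kb for 86.2%. Leaving out 1 of 2 replicates cannot move a mean by more than its SD and shows nothing about stability. Changes of the width limit change which regions are members. The cause of the other changes was not tested. The unknown depth and caller threshold limit what an unmarked base inside a domain means. No paired analysis was possible because the lists used are of ChIP samples alone and no test was made.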

Other observations

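The closest pairs of domains were separated by a few bases. They were 3L 19168018 to 19184702 and 19184708 to 19203006, 5 bp apart, 2R 20722390 to 20745060 and 20745068 to 20756172, 7 bp apart, and 2R 10424652 to 10434928 and 10434940 to 10446120, 11 bp apart. In the first 2 pairs neither replicate marked the bases between. In the last, 1 region of replicate 1 ran across the break and replicate 2 left it open. Of the 52 pairs less than 500 bp apart, a region ran across the break in 2 in replicate 1 and in 1 in replicate 2, and in 0 in both.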
